A study of Mus musculus with 8 samples.

Results

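Fibroblast identity and matrix genes were followed through 9 genes: the surface glycoprotein Thy1, the matrix genes Dcn, Lum, Lox, Fn1, Fbln2 and Postn, and the receptors Pdgfra and Pdgfrb. Every probe that carried one of these symbols, or the symbol of its transcript record, was taken, which gave 14 probes for 9 of the 27670 genes on the array. The rule uses no measured value, but the members were chosen with earlier results of these data known. The study held 8 mouse RNA samples, of which 4 were hybridised to an Agilent array in 1 colour and are described here, with 1 array per group. PM2i-iPSC were fibroblasts given a combination of agents that contained purmorphamine, an agonist of the Hedgehog receptor component Smoothened, and then 2i/LIF, the kinase inhibitors and cytokine that hold mouse pluripotent cells in an undifferentiated state. OM2i-iPSC were made likewise with an oxysterol in place of purmorphamine. ES were embryonic stem cells of blastocyst origin from 129/Ola mice, and MEF were mouse embryonic fibroblasts, the cell type that both preparations began as. Neither the other agents in the combinations, nor doses, passages, clones or the strain of the fibroblasts, are given in the labels. The 4 Affymetrix samples (ES cells, astrocytes, Bmi1-transduced astrocytes and spheres grown from these) were not used.

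Fibroblasts are the mesenchymal cells that lay down and remodel the connective tissue matrix. They secrete fibrillar collagens, the proteoglycans that space the fibrils, and the enzymes that cross-link them, and they divide and migrate in response to platelet-derived growth factors. When fibroblasts are reprogrammed, loss of Thy1 and of other mesenchymal genes is known as an early step, ahead of the return of the pluripotency network. Some of these genes are not unique to fibroblasts. Fn1 is laid down by early embryonic and ES cells, and Pdgfra marks primitive endoderm in the blastocyst.

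The probes are 60 bases long, and those shown here are the ones on which the results turn for genes with more than 1 probe, and that of a gene with under 1% of the MEF level left. Fn1 is read on the minus strand of chromosome 1, so its probe 3 lies nearest to the start of the gene and its probe 1 nearest to the end. Probe 3 covers chr1:71869155-71869913, probe 2 covers chr1:71839394-71839453 and probe 1 covers chr1:71832689-71834926 on build mm7. Intervals longer than the probe hold bases that are not in it. Probes 2 and 3 are 29701 bases apart and probes 1 and 2 are 4467 bases apart. Whether a probe lies in coding or untranslated exons was not analysed. The sequences run 5′ to 3′ as deposited, with no base in capitals.
Fn1 probe 3: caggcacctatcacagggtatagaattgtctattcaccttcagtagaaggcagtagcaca
Fn1 probe 2: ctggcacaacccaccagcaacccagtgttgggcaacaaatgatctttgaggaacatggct
Fn1 probe 1: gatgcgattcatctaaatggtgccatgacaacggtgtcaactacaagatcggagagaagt
The brighter Dcn probe lies at chr10:97080086-97080145, plus strand, and left under 1% of the MEF level on each of the other arrays.
Dcn probe 1: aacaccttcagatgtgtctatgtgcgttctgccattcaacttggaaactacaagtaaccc
The dimmer Thy1 probe covers chr9:43981253-43981698, plus strand, 1163 bases before the brighter one.
Thy1 probe 2: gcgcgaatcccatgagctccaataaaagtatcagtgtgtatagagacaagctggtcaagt
The dimmer Pdgfra probe lies at chr5:74581841-74581900, plus strand, 34215 bases before the brighter one, and was well above background in MEF alone.
Pdgfra probe 2: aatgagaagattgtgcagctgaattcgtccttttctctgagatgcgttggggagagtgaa

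All 9 genes were well above background in MEF. On the PM2i-iPSC array all 9 were at least 2-fold lower than in MEF, and on the OM2i-iPSC and the ES array 8 of 9 were, the exception being Fn1. Fn1 is counted here on its probe 1. Its probe 3 was at 131% of the MEF level in PM2i-iPSC, 9.83% in OM2i-iPSC and 3.95% in ES. The median share of the MEF level that remained was at most 2.67% on the PM2i-iPSC array, at most 2.64% on the OM2i-iPSC array and 2.10% on the ES array. The medians of the preparations are the upper bound of Postn. However low Postn was, the PM2i-iPSC median could fall no further than Fbln2 at 2.28%, close to the 2.10% of ES, which is that of Pdgfrb. That of OM2i-iPSC could fall to Pdgfra at 1.25%, so no order of the 3 is read from these medians. A level here is the log2 of the processed spot signal relative to the 75th percentile of its array. A share or fold is taken from the brightest probe of a gene, meaning that with the highest mean level over the 4 arrays. Over all genes tested, 23.6% were at least 2-fold lower and 34.0% at least 2-fold higher on the PM2i-iPSC array than in MEF. The same shares were 23.3% and 36.7% on the OM2i-iPSC array, and 22.4% and 33.8% on the ES array. With each bound taken at its value, the median log2 difference from MEF over the members was −5.23 or lower on the PM2i-iPSC array, −5.24 or lower on the OM2i-iPSC array and −5.57 on the ES array, beside 0.26, 0.37 and 0.27 over all genes. Scaling each array to its own median in place of the 75th percentile moved these medians over all genes to −0.35, −0.37 and −0.28. With it, 7479 genes were at least 2-fold lower and 5613 higher in PM2i-iPSC than in MEF, against 5128 and 7386 before. The counts were 7831 and 5978, against 5102 and 8033, in OM2i-iPSC and 7115 and 5616, against 4881 and 7358, in ES. The members at least 2-fold lower numbered 9, 9 and 8 in PM2i-iPSC, OM2i-iPSC and ES on that scale, with Fn1 added in OM2i-iPSC. Since each group is 1 array, no test was run and no replicate error exists. The only spread that can be given is that between spots of 1 probe, an SD of 0.272 for a log2 difference between arrays, which covers neither RNA preparation nor hybridisation. In bulk RNA, fewer cells of a type and less RNA per cell cannot be told apart.

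The MEF array was on a slide of its own, scanned on another day and extracted with an older software version, so that slide and group cannot be told apart in any comparison with MEF. The slide of PM2i-iPSC also held ES. OM2i-iPSC was on a further slide, scanned on the same day as theirs. Slide and group therefore cannot be told apart in comparisons of OM2i-iPSC with PM2i-iPSC or ES either. Between 63.4% and 72.8% of the 43379 spots were well above background. The lowest signal well above background lay at a level of −4.59 on the PM2i-iPSC array, −4.60 on the OM2i-iPSC array, −5.13 on the ES array and −6.85 on the MEF array, so a gene that was lost could be followed less far on the pluripotent arrays than in MEF. Where a gene was not well above background, its fold is a bound. All 8 ES cell markers were well above background on all 4 arrays, MEF included, with summed levels of 94.3, 79.2 and 106.5 times the 75th percentile on the PM2i-iPSC, OM2i-iPSC and ES arrays, against 1.48 in MEF. Nanog and Dppa5a were saturated on the pluripotent arrays, and Esrrb and Tdgf1 on the PM2i-iPSC array too. The sums there are therefore lower limits and give no order among those arrays.

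**Figure D1:**
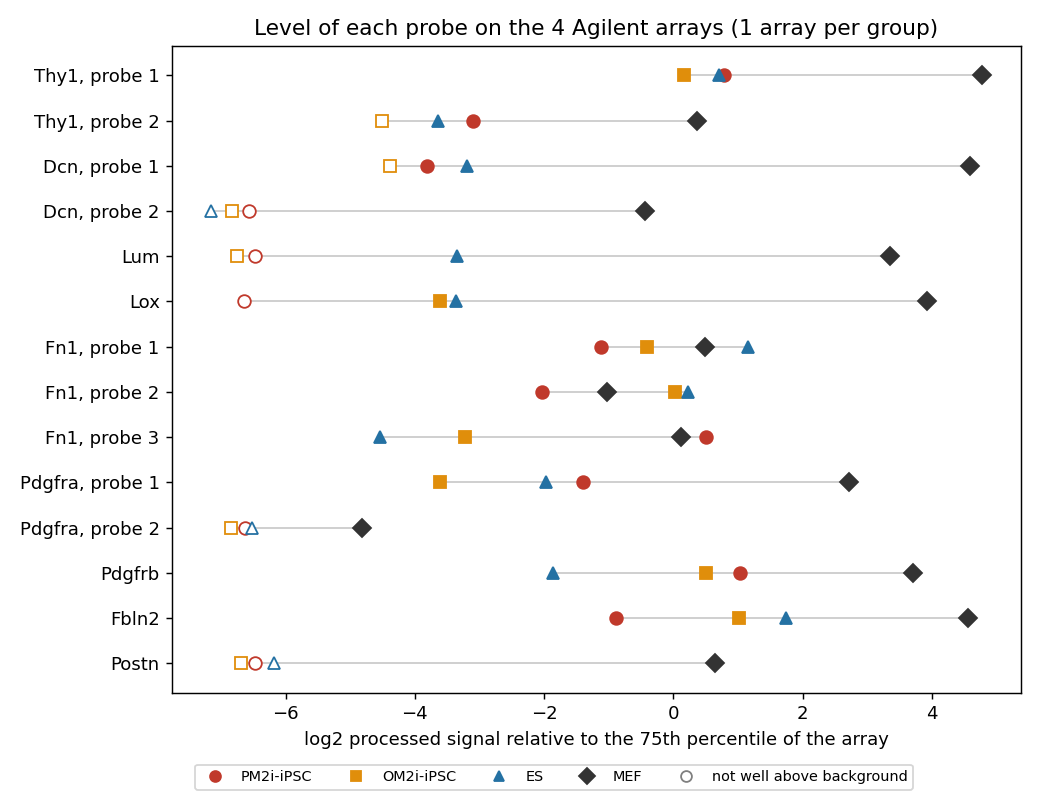
Level of each of the 14 probes on the 4 arrays, as log2 signal relative to the 75th percentile of the array on the x axis, with 1 row per probe and 1 symbol per array; open symbols mark spots not well above background. The MEF symbol stands at the right of every row except the 3 of Fn1, where MEF lies among the other arrays.

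Dcn encodes decorin, a small leucine-rich proteoglycan that binds collagen fibrils and growth factors. Its brighter probe, printed above, had a level of −3.81 on the PM2i-iPSC array, −4.39 on the OM2i-iPSC array, where it was not well above background, and −3.19 on the ES array, against 4.59 in MEF. This left 0.296% of the MEF level in PM2i-iPSC, at most 0.198% in OM2i-iPSC and 0.455% in ES. The folds below MEF were 338 for PM2i-iPSC, at least 506 for OM2i-iPSC and 219.8 for ES. Of the 19731 genes with a fold or bound between PM2i-iPSC and MEF, 0.0862% had a lower value than Dcn. The second Dcn probe, 36826 bases before the first, was well above background in MEF alone, at −0.43, which bounds its share at 5.61% in PM2i-iPSC, 5.56% in OM2i-iPSC and 3.85% in ES.

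Lum encodes lumican, a proteoglycan of the same family that organises collagen fibrils in the cornea and skin. Its level was −6.47 on the PM2i-iPSC array and −6.75 on the OM2i-iPSC array, both not well above background, and −3.35 on the ES array, against 3.35 in MEF. At most 0.407% of the MEF level was left in PM2i-iPSC and at most 0.403% in OM2i-iPSC, while ES held 0.963%. In ES the gene was measured, 104-fold below MEF, and both preparations were at least 2-fold below ES, by at least 2.36-fold in PM2i-iPSC and at least 2.39-fold in OM2i-iPSC.

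Dcn and Lum are neighbours on chromosome 10, followed by Kera and Epyc, which encode further proteoglycans of the family. Kera and Epyc were well above background in MEF alone, at levels of −5.99 and −5.66, too close to the background of the other arrays for a fold. Btg1 and Atp2b1, the nearest genes well above background on all 4 arrays on each side, fall outside the naming rule and are given for their position. Gm46240, between Btg1 and Dcn, was matched to no probe, and Ccer1, between Epyc and Atp2b1, was well above background on no array. Btg1, an antiproliferative gene, was lower than in MEF by at least 5.31-fold in PM2i-iPSC, at least 7.04-fold in OM2i-iPSC and at least 4.76-fold in ES, with its spot saturated in MEF. Atp2b1, a plasma membrane calcium pump, was 2.79-fold, 2.70-fold and 2.25-fold lower in PM2i-iPSC, OM2i-iPSC and ES. The true fold of the saturated Btg1 is not known, so only Atp2b1 gives a measured fold beside those of Dcn and Lum.

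Lox encodes lysyl oxidase, the secreted enzyme that cross-links collagen and elastin. Its level was −6.64 on the PM2i-iPSC array, not well above background, −3.62 on the OM2i-iPSC array and −3.37 on the ES array, against 3.93 in MEF. At most 0.272% of the MEF level was left in PM2i-iPSC, 0.535% in OM2i-iPSC and 0.635% in ES. OM2i-iPSC and ES differed by −0.25 on the log2 scale, within the spread between spots. PM2i-iPSC lay at least 2.33-fold below ES and at least 1.96-fold below OM2i-iPSC.

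Postn encodes periostin, a matricellular protein that binds collagen and integrins. Its probe was well above background in MEF alone, at 0.64, and stood at −6.48, −6.69 and −6.18 on the PM2i-iPSC, OM2i-iPSC and ES arrays. That bounds what was left at 2.67% in PM2i-iPSC, 2.64% in OM2i-iPSC and 1.83% in ES, and gives no order among the 3. A further probe is named by an older symbol of Postn and lies outside the rule; it was at −5.34 in MEF, well above background there alone, with no fold.

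Thy1 encodes a surface glycoprotein used to sort fibroblasts from reprogrammed cells. Its brighter probe had a level of 0.78 on the PM2i-iPSC array, 0.17 on the OM2i-iPSC array and 0.70 on the ES array, against 4.77 in MEF. The shares of the MEF level were 6.26% in PM2i-iPSC, 4.10% in OM2i-iPSC and 5.93% in ES, so the gene was far lower than in MEF on every pluripotent array but stayed well above background. PM2i-iPSC and ES differed by 0.08 on the log2 scale, within the spread between spots. OM2i-iPSC lay 1.45-fold below ES, a difference of −0.53. The second probe had levels of −3.10 in PM2i-iPSC, −4.50 in OM2i-iPSC (not well above background) and −3.64 in ES, against 0.37 in MEF, leaving 8.99%, at most 3.41% and 6.19% of the MEF level. Both probes thus place OM2i-iPSC lowest. Over the 9 settings of the processing, however, its Thy1 difference from ES ran from −0.72 to −0.03 on the log2 scale.

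Fbln2 encodes fibulin-2, a matrix glycoprotein that links fibronectin, basement membrane and elastic fibres. Its level was −0.89 on the PM2i-iPSC array, 1.02 on the OM2i-iPSC array and 1.75 on the ES array, against 4.56 in MEF. The shares left were 2.28% in PM2i-iPSC, 8.58% in OM2i-iPSC and 14.2% in ES. PM2i-iPSC was 6.23-fold below ES, a value that 0.708% of 19220 genes undercut, and 3.77-fold below OM2i-iPSC. OM2i-iPSC was 1.65-fold below ES.

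**Figure D2:**
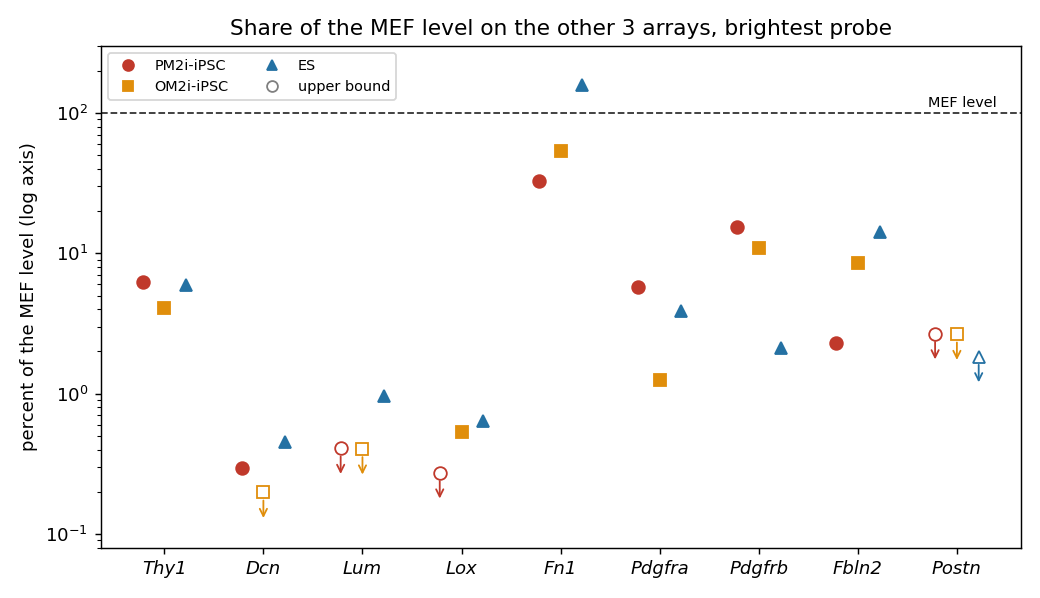
Percent of the MEF level left on the PM2i-iPSC, OM2i-iPSC and ES arrays for each of the 9 genes, from the brightest probe, on a log axis; open symbols with arrows are upper bounds and the dashed line is the MEF level. Dcn, Lum and Lox lie below 1% on all 3 arrays, Thy1, Pdgfra, Pdgfrb, Fbln2 and the bounds of Postn between 1% and 16%, and Fn1 at 32.8% in PM2i-iPSC, 53.6% in OM2i-iPSC and 158% in ES.

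The receptors were ordered differently from one another. Pdgfra, a receptor that binds platelet-derived growth factors A and C among others, had a level of −1.40 on the PM2i-iPSC array, −3.60 on the OM2i-iPSC array and −1.96 on the ES array, against 2.72 in MEF. The shares of the MEF level were 5.78% in PM2i-iPSC, 1.25% in OM2i-iPSC and 3.90% in ES. PM2i-iPSC was 1.48-fold above ES and OM2i-iPSC 3.12-fold below it, which set PM2i-iPSC 4.62-fold above OM2i-iPSC. The probe is spotted 10 times on the array, of which 9, 9, 8 and 8 spots were used on the PM2i-iPSC, OM2i-iPSC, ES and MEF arrays. Their SD on the log2 scale was 0.147, 0.240, 0.128 and 0.0796, and the ranges did not overlap between any of the arrays. The lowest PM2i-iPSC spot was at −1.63 and the highest OM2i-iPSC spot at −3.35, while the ES spots lay between −2.23 and −1.87. Spots show the precision of an array and are not replicates of a condition. The dimmer Pdgfra probe was well above background in MEF alone, at −4.82, and bounds nothing in the iPSC preparations. Primitive endoderm markers, listed because Pdgfra is one in the blastocyst, summed to levels of 23.1, 19.9 and 24.5 times the 75th percentile in PM2i-iPSC, OM2i-iPSC and ES, against 25.0 in MEF. Of the 8 markers 5, 6 and 6 were well above background on the 3 pluripotent arrays and 6 in MEF, with Foxa2 on none. Most of each sum was Gata6, at levels of 4.30, 4.09 and 4.32 in PM2i-iPSC, OM2i-iPSC and ES, against 4.50 in MEF, on its brightest probe. Gata6 was saturated there on the 3 pluripotent arrays but not in MEF, so those levels and sums are lower limits and give no order against MEF. Its other 2 probes lay at least 2-fold above MEF on all 3 arrays. Marker by marker, 3 of 6 were at least 2-fold higher than MEF and 1 lower in PM2i-iPSC, 2 and 2 of 6 in OM2i-iPSC, and 4 and 1 of 7 in ES. Over all genes 34.0%, 36.7% and 33.8% were higher and 23.6%, 23.3% and 22.4% lower. The saturated Gata6 is among the 6, 6 and 7 and counted as neither, though its true fold is not known. The part of these markers in the Pdgfra level was not tested.

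Pdgfrb, the receptor for platelet-derived growth factor B, had a level of 1.02 on the PM2i-iPSC array, 0.51 on the OM2i-iPSC array and −1.86 on the ES array, against 3.71 in MEF. PM2i-iPSC held 15.5% of the MEF level and OM2i-iPSC 10.9%, against 2.10% in ES. On brightest probes it was the member that lay above ES by at least 2-fold in both preparations, 7.37-fold in PM2i-iPSC and 5.16-fold in OM2i-iPSC. Probe 3 of Fn1 also lay above ES, by 33.1-fold in PM2i-iPSC and 2.49-fold in OM2i-iPSC. It was not the brightest Fn1 probe on average over the arrays, but was so on the PM2i-iPSC array. Of the genes compared, 98.8% had a lower value than Pdgfrb between PM2i-iPSC and ES and 96.3% between OM2i-iPSC and ES. Pericytes and smooth muscle also carry this receptor. Their 9 markers summed to 5.54, 7.74 and 7.20 times the 75th percentile in PM2i-iPSC, OM2i-iPSC and ES, against 30.1 in MEF, and 6, 9, 6 and 9 of them were well above background. Rgs5, Cspg4 and Kcnj8 were not well above background in PM2i-iPSC, nor Rgs5, Abcc9 and Kcnj8 in ES. Between PM2i-iPSC and ES, 7 of the markers had a fold or bound, with a median of −0.50 on the log2 scale. Abcc9 was at least 18.5-fold higher and Cspg4 at least 3.76-fold lower in PM2i-iPSC, and the others were lower by under 2-fold. Between OM2i-iPSC and ES, 2 of 9 were higher by 2-fold or more and 0 lower, with a median of 0.71. The higher ones, Rgs5 and Kcnj8, are bounds, as neither was well above background in ES. The all-gene shares for this pair of arrays were 20.6% and 13.6%, with an all-gene median of 0.04. The part of the 9 markers in the Pdgfrb level was not tested.

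Fn1 encodes fibronectin, the matrix glycoprotein that integrins bind, and its transcript is known for alternative splicing. It was the member with the most left, and its 3 probes did not agree. Probe 1 had a level of −1.12 on the PM2i-iPSC array, −0.40 on the OM2i-iPSC array and 1.15 on the ES array, against 0.49 in MEF, or 32.8%, 53.6% and 158% of the MEF level. Probe 2 had levels of −2.03, 0.02 and 0.23 in PM2i-iPSC, OM2i-iPSC and ES, against −1.02 in MEF, or 49.6%, 206% and 238%. Both put PM2i-iPSC below MEF and ES above it, and they place OM2i-iPSC on opposite sides of MEF. Probe 3, toward the start of the gene, had levels of 0.51, −3.22 and −4.54, against 0.12 in MEF, or 131%, 9.83% and 3.95%. Here PM2i-iPSC was the array close to MEF, and OM2i-iPSC and ES were far below.

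On probe 1, PM2i-iPSC was 4.81-fold and OM2i-iPSC 2.94-fold below ES. On probe 3 PM2i-iPSC lay above ES by 5.05 on the log2 scale and OM2i-iPSC by 1.31. Probe 1 was spotted 10 times, with an SD of 0.296, 0.236, 0.104 and 0.176 over the 10, 10, 8 and 9 spots used on the PM2i-iPSC, OM2i-iPSC, ES and MEF arrays. The highest PM2i-iPSC spot was at −0.70 and the lowest MEF spot at 0.23, and the ES spots began at 1.01, above the highest MEF spot at 0.75. The spots of PM2i-iPSC and OM2i-iPSC overlapped. Probe 3 is a single spot, with an error estimated by the extraction software of 13.2% of its signal on the OM2i-iPSC array and 18.9% on the ES array, where it was dimmest. A statement on Fn1 therefore holds for a probe and not for the gene. Among genes at least 2-fold from MEF on their brightest probe, 5044 other probes had a fold or bound in PM2i-iPSC. Of these, 2574 were at least 2-fold the same way, 928 (18.4%) at least 2-fold the opposite way and the rest under 2-fold. The opposite share was 19.3% of 5182 probes in OM2i-iPSC and 15.7% of 4989 in ES.

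**Figure D3:**
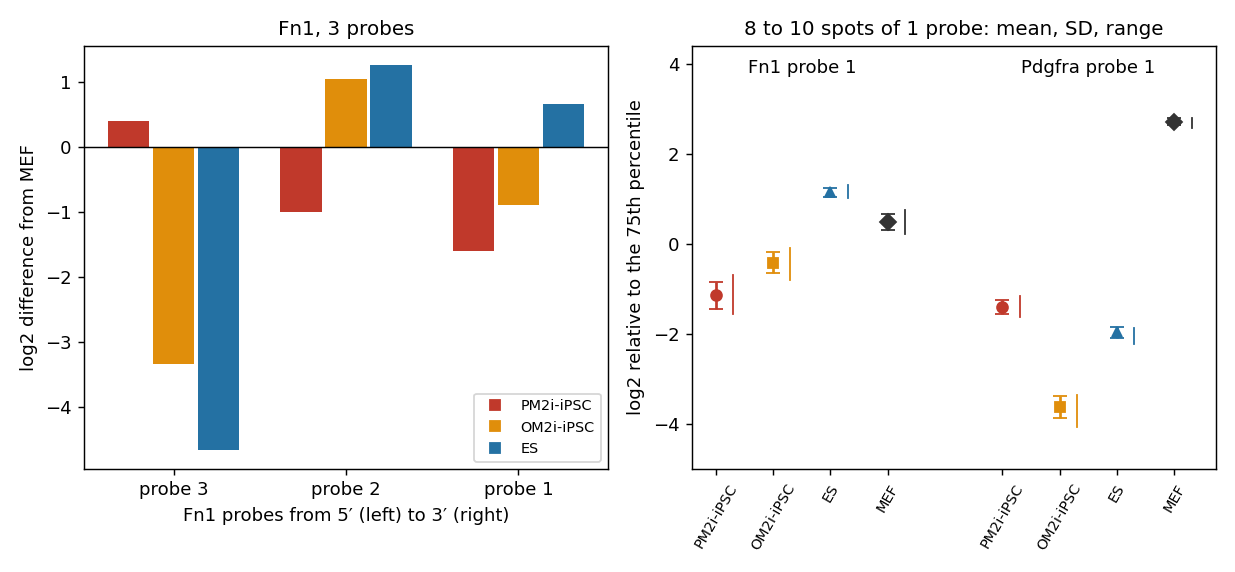
Left, log2 difference from MEF of the 3 Fn1 probes on the PM2i-iPSC, OM2i-iPSC and ES arrays, in the order of the gene; right, log2 level of the repeated spots of Fn1 probe 1 and Pdgfra probe 1 on the 4 arrays, with symbols for the mean, bars for the SD over the 8 to 10 spots used and the line beside each for their range. Probe 3 of Fn1 turns the order of the arrays round, and the Pdgfra spots of the 4 arrays do not overlap.

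Set against ES cells, both preparations had 4 of the 8 members with a fold at least 2-fold lower and 1 higher. In PM2i-iPSC the lower ones were Lum, Lox, Fn1 and Fbln2, and in OM2i-iPSC they were Dcn, Lum, Fn1 and Pdgfra, with Pdgfrb the higher one in each. Fn1 is counted here on its probe 1, while its probe 3 was at least 2-fold higher than ES in both. With the median of all probes of a gene, 1 of 7 was lower in OM2i-iPSC, and with normexp background correction 3 of 8 were lower in each preparation. Over all genes, 11.3% were at least 2-fold lower and 14.0% higher in PM2i-iPSC, and 13.6% lower and 20.6% higher in OM2i-iPSC. With median scaling, 3611 genes were lower and 3404 higher in OM2i-iPSC than in ES, against 2761 and 4192. The members' median log2 difference was −0.92 in PM2i-iPSC and −0.96 in OM2i-iPSC, against −0.04 and 0.04 over all genes. These comparisons share the ES array. Between PM2i-iPSC and OM2i-iPSC, 7 members had a fold, of which Fbln2 was at least 2-fold lower and Pdgfra at least 2-fold higher, where 16.9% and 12.4% of all genes were. With median scaling the lower and higher genes were about equal in number, 2885 and 2915, against 3406 and 2508. The median over the members was 0.51, that of all genes −0.09.

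A list of 67 companion genes in 10 groups placed the members among their relatives. Against MEF, 46 of the 58 with a fold were at least 2-fold lower in PM2i-iPSC and 8 higher, 44 and 9 of 60 in OM2i-iPSC, and 45 and 4 of 59 in ES. The medians, with bounds at their value, were −3.38, −2.98 and −2.83 on the log2 scale. All 8 fibrillar and type VI collagen genes were at least 2-fold lower in PM2i-iPSC and in ES, and 7 of 8 in OM2i-iPSC, where the brightest Col3a1 probe was 1.11-fold lower. Of its 3 probes, 1 other was at least 2-fold lower in OM2i-iPSC. Col6a3 was at least 134-fold, at least 136-fold and 73.5-fold lower in PM2i-iPSC, OM2i-iPSC and ES, and Col5a2, of the minor chain of type V fibrils, at least 114-fold, at least 116-fold and at least 167-fold. No other of the 3 Col6a3 probes was counted as at least 2-fold lower or higher on any array. In the periostin and matricellular group 8, 8 and 7 of 9 genes were lower in PM2i-iPSC, OM2i-iPSC and ES and none was at least 2-fold higher. Thbs2, thrombospondin-2, was at least 92.8-fold, 61.5-fold and 55.6-fold lower there.

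Among the relatives of Dcn and Lum, 4, 3 and 4 of 5 proteoglycans were lower in PM2i-iPSC, OM2i-iPSC and ES. Prelp was at least 60.9-fold, at least 61.5-fold and at least 88.7-fold lower. Omd, osteomodulin of bone and tooth matrix, went the opposite way, being 14.9-fold, 20.7-fold and 16.7-fold higher in PM2i-iPSC, OM2i-iPSC and ES than in MEF. Relatives of Lox were mixed. Loxl1, needed for elastic fibres, was 20.9-fold, 15.2-fold and 14.2-fold lower, and Loxl4 was 7.73-fold, 10.8-fold and 4.06-fold higher. Of the relatives of Fbln2, 4 of 5 were lower and 1 higher on each array. Fbln5, which assembles elastic fibres, was at least 194-fold, at least 196-fold and at least 283-fold lower, and Fbln7 was 5.71-fold, 7.28-fold and 6.34-fold higher. The values of Prelp, Loxl4 and Fbln5 are those of their brightest probes. None of their other probes was counted as at least 2-fold lower or higher than MEF on any array, and a probe without a fold is not counted.

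Elastic fibre and microfibril genes were lower for 7 of 8 in PM2i-iPSC, 6 of 9 in OM2i-iPSC and 6 of 8 in ES. Fbn1, the main microfibril protein, was at least 121-fold, 104-fold and at least 154-fold lower, while the brightest Mfap2 probe was 4.85-fold, 4.75-fold and 2.82-fold higher. The other Mfap2 probe was at least 2-fold lower than MEF on all 3 arrays. The ligands of the receptors were split. Pdgfc was 4.99-fold, 7.49-fold and 4.44-fold lower in PM2i-iPSC, OM2i-iPSC and ES, and the brightest Pdgfa probe was 3.49-fold, 3.28-fold and 1.90-fold higher, while the other was at least 2-fold lower in PM2i-iPSC. Among the large proteoglycan and hyaluronan genes, 3 of 5 were lower in PM2i-iPSC and 3 of 4 in OM2i-iPSC and in ES. Cd44, the hyaluronan receptor, was at least 111-fold, at least 55.6-fold and at least 17.2-fold lower, but 1 of its 2 other probes was at least 2-fold higher in PM2i-iPSC. Acan, aggrecan of cartilage, was 7.38-fold, 6.93-fold and 1.29-fold higher.

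Mesenchymal transcription factors were lower for 3, 3 and 4 of 5 genes in PM2i-iPSC, OM2i-iPSC and ES. Twist2 was 196-fold, 461-fold and 177-fold lower. Prrx1 was at least 399-fold lower in PM2i-iPSC and 136-fold in OM2i-iPSC but 8.57-fold in ES, so that it lay at least 46.6-fold below ES in PM2i-iPSC and 15.9-fold below ES in OM2i-iPSC. Of the 5 other Prrx1 probes, 4 were at least 2-fold lower than MEF on each array and 1 at least 2-fold higher in OM2i-iPSC and ES. Of the 7 other surface and cytoskeleton markers 6 were lower on each of the 3 arrays. Ddr2, a collagen receptor, was at least 105-fold, 28.4-fold and 7.12-fold lower, and the endoglin gene Eng was 3.87-fold, 2.74-fold and 1.25-fold higher. The other Ddr2 probe was not counted as at least 2-fold lower or higher on any array. Against ES, 9 of 48 companions were at least 2-fold lower and 7 higher in PM2i-iPSC, and 9 of 52 lower and 13 higher in OM2i-iPSC. These counts stand beside 11.3% lower and 14.0% higher over all genes in PM2i-iPSC and 13.6% lower and 20.6% higher in OM2i-iPSC, close enough that nothing is read from them. With the median of all probes, 4 companions were higher in PM2i-iPSC and 8 in OM2i-iPSC.

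**Figure D4:**
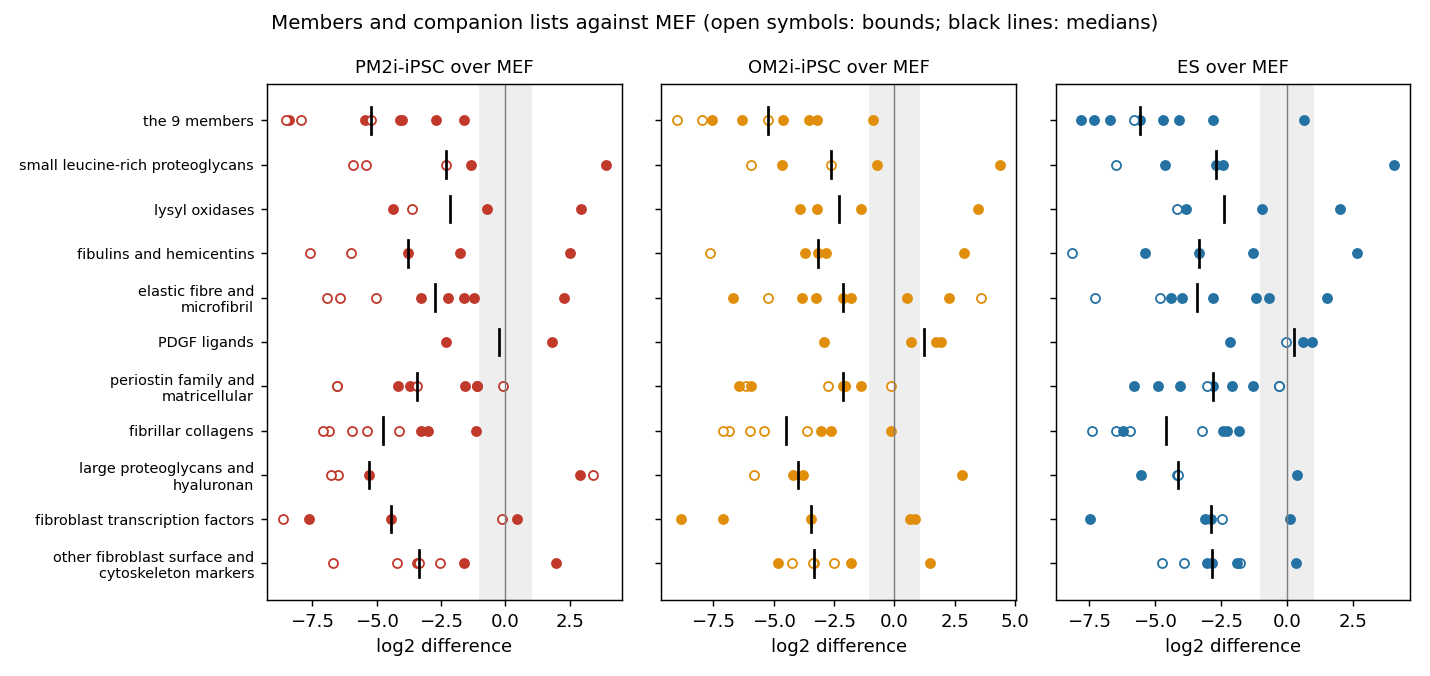
Log2 difference from MEF of the 9 members (top row) and of the companion genes by group, on the PM2i-iPSC, OM2i-iPSC and ES arrays from left to right; each circle is a gene, open circles are bounds, black lines are medians over the genes shown and the grey band marks differences under 2-fold. The members' medians are at most −5.23 in PM2i-iPSC, at most −5.24 in OM2i-iPSC and −5.57 in ES, and every fibrillar collagen lies left of 0 on all 3 arrays.

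For the 5 members well above background on all 4 arrays, the genes with the most similar pattern were sought among 14962 genes, by the Euclidean distance of the 3 log2 differences from MEF. Apbb1 lay nearest to Thy1 at a distance of 0.162, followed by E430024C06Rik at 0.305. Nbl1 was nearest to Pdgfra, at 0.210, with differences of −4.08, −6.14 and −4.58 in PM2i-iPSC, OM2i-iPSC and ES, and Cd99l2 followed at 0.612. Klhl42 and Itsn2 lay at 0.272 and 0.281 from Fn1, and Zfp521 and Zic1 at 0.530 and 0.577 from Fbln2. Pdgfrb had no gene so close: Lrrc61 was nearest at 0.912, followed by an unnamed cDNA clone at 0.967. A pattern over 3 arrays is a description of these arrays only.

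Sequences before the start of transcription were at hand for Postn, Pdgfra and Fbln2, from RefSeq on GRCm38.p6. They are shown for a gene not well above background on the pluripotent arrays and for one that was. A second start of Postn, with the 250 bases at chr3:54360857-54361106, holds the letters TATAAA on the strand of the gene, in capitals, at position −26, and the other start does not. Of 32851 promoter windows of all genes, 12.4% hold these letters on either strand. The 250 bases before Fbln2, at chr6:91212514-91212763, hold GGGCGG on the opposite strand, in capitals as its reverse complement, as 32.7% of windows do on either strand. Neither motif was found in the Pdgfra window.
Postn second start: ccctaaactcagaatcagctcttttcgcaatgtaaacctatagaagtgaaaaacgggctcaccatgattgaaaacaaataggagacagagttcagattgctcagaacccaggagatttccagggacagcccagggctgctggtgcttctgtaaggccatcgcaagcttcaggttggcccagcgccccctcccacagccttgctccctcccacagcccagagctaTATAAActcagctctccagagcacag
Fbln2: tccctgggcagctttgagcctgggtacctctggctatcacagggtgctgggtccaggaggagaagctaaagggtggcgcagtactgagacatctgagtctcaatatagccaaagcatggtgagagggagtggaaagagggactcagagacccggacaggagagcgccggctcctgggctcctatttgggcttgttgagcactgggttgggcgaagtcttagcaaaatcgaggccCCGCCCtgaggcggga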

How the data were processed

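Total RNA of the 4 cell populations was extracted with Trizol and labelled with Cy3, per the labels' protocols. The deposited scanner files hold spot intensity, which per the file headers came from version 10.7.3.1 of Agilent's Feature Extraction software for PM2i-iPSC, OM2i-iPSC and ES, and from version 9.5.3.1 for MEF. The authors' deposited intensity table of the series served as an alternative. Control spots and spots flagged as outliers were dropped, and repeated spots averaged. The processed signal was divided by the 75th percentile of its array before log2 was taken. Of 41174 probes, 22951 were named through their accession in the RefSeq table used, 6659 by symbol, 3109 by an older symbol, and 8455 kept the deposited name. The probe with the highest mean level over the 4 arrays, called the brightest, stood for a gene. A gene detected well above background on either array entered their comparison, and was counted at 2-fold. A side not well above background was raised, where lower, to the dimmest detected signal of its array, and a saturated side kept its value. Both give bounds, written as "at least" or "at most". Coordinates are those of the MEF file, on mm7.

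With 1 array per group no test was possible. The members and lists were chosen with earlier results of these data known. Named genes were the members, up to 4 genes of each companion list with the widest difference from MEF and up to 2 opposite, and the 2 genes nearest in pattern to a member. Signals were analysed with Python 3.11.15 and limma 3.58.1, the latter for the normexp correction, which was run on median signals. Further alternatives were quantile and median scaling, a percentile over shared probes, the median of all probes, a stricter filter and 1 detection floor. The fold and bound rules were tested on simulated data.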

Additional observations from a re-analysis of the deposited data

Results flagged for a closer look

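Pdgfra was on opposite sides of ES in the iPSC preparations, 1.48-fold above it in PM2i-iPSC and 3.12-fold below it in OM2i-iPSC, which is a difference of 2.21 on the log2 scale. With 1 array per group the difference was not tested, and OM2i-iPSC was on another slide than PM2i-iPSC and ES. The dimmer of the Thy1 probes likewise lay above ES in PM2i-iPSC and below it in OM2i-iPSC, where it was not well above background, so that the difference of 1.40 on the log2 scale is a bound. It was not tested either.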

How the results depend on the processing

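Of 378 log2 differences of members recomputed under the 8 alternatives, 295 moved by less than the spread between spots, 83 moved by more, and none changed sign. Probe 1 of Fn1, or the median of its 3 probes, stayed above MEF in ES in the 9 settings, by between 0.10 and 0.78 on the log2 scale, which says nothing of probe 3, where ES was far below MEF. The number of genes at least 2-fold lower drops by construction when genes must be well above background on all 4 arrays, since genes lost on an array leave. Then 5 of 5 members were lower in PM2i-iPSC, 4 of 5 in OM2i-iPSC and 4 of 5 in ES than in MEF. Against ES, 2 of 5 were lower in PM2i-iPSC and 2 of 5 in OM2i-iPSC. Over all genes 3789, 3850 and 3362 were lower than MEF in PM2i-iPSC, OM2i-iPSC and ES, against 5128, 5102 and 4881 without the filter. Companions lower than MEF numbered 27, 25 and 25 of 35 in PM2i-iPSC, OM2i-iPSC and ES. With that filter 8 of 35 companions were higher in OM2i-iPSC than in ES, and between PM2i-iPSC and OM2i-iPSC 5 were lower and 2 higher. With the median of all probes, 4 companions were higher than ES in PM2i-iPSC and 8 in OM2i-iPSC, 1 member was lower than ES in OM2i-iPSC, and 2 members were higher in PM2i-iPSC than in OM2i-iPSC. With a percentile over shared probes, 2 members were lower in PM2i-iPSC than in OM2i-iPSC. With bounds at their value, the median share of the MEF level in PM2i-iPSC was 1.72% with median scaling, 4.05% with normexp, 7.50% with the median of probes and 6.26% with the stricter filter. In OM2i-iPSC it was 2.02% with quantile normalization, 1.58% with median scaling, 3.56% with normexp, 5.55% with the median of probes and 8.58% with the stricter filter. In ES it was 2.65% with quantile normalization, 1.43% with median scaling, 3.68% with normexp, 6.06% with the median of probes, 5.93% with the stricter filter and 2.67% with 1 floor. The cause of the moves outside the stricter filter was not tested. No paired analysis was possible because each group has 1 array, and for the same reason no array could be left out. Signal over background limits the lost genes: shares of Lum, Lox, Dcn and Postn given as bounds may be lower.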
